A study of Mus musculus with 16 samples.

Results

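The matrix metalloproteinases (MMPs) and the tissue inhibitors of metalloproteinases (TIMPs) were followed through the cell classes of mammary tumours from a pair of mouse models for triple-negative breast cancer (TNBC). The genes were listed by name, 7 MMP genes (Mmp2, Mmp3, Mmp9, Mmp11, Mmp12, Mmp13 and Mmp14) and 3 TIMP genes (Timp1, Timp2 and Timp3), and all 10 were measured among the 19822 genes of the tables. Drop-seq, in which a cell and a bead with a barcode share a droplet and each captured transcript is counted at its 3′ end by a unique molecular identifier (UMI), was applied to live dapi-negative singlets of end-stage tumours. WB1P tumours arose in female FVB/n mice with the genotype WapCre;Brca1F/F;Trp53F/F, and the Wap promoter of the WapCre allele drives Cre in mammary epithelium. WB1P-Myc mice had the same alleles and carried in addition a Cre-activated Myc construct with luciferase in the Col1a1 locus (Col1a1 invCAG-Myc-IRES-Luc), so both groups were designed to lose Brca1 and Trp53 in that epithelium. No treatment was given per the labels, and the ages are not given in the sources used here.

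The protocol speaks of 1 sample of sorted cells per model, from which 4 droplet fractions were kept. The study names 2 mice per model, and whether their cells were pooled, or whether a fraction holds cells of both, is not known from the sources, so each model was treated as 1 sample and the spread between fractions may be technical or between mice. No test between the models was made. All intervals are 95% and exact and cover counting error only, and model and droplet session cannot be told apart. After filtering for 450 to 4000 genes and under 20% mitochondrial UMIs, 1307 WB1P cells (median 1724 UMIs) and 3491 WB1P-Myc cells (median 2359 UMIs) remained, and WB1P fraction 1 gave only 65 of them. Of the kept cells' barcodes, 1 occurred in more than 1 library. In epithelial-like cells, Myc stood at 68.0 UMIs per 1000000 UMIs of the class (CPM) in WB1P and at 206 CPM in WB1P-Myc, and every WB1P-Myc fraction was above every WB1P fraction, the direction that the labels give. Trp53 was 6.95 and 14.2 CPM in epithelial-like cells of WB1P and WB1P-Myc and 37.8 to 55.9 CPM in fibroblast- and macrophage-like cells, also the direction of the genotype. Brca1 was 5.46 and 10.3 CPM in epithelial-like cells and at most 4.47 CPM in those other classes. Which exons are deleted is not given in the labels, and a count at the 3′ end need not show the deletion.

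MMPs are zinc-dependent proteases that are made as inactive precursors and cleave collagens, gelatin, elastin and other matrix proteins, as well as growth factors and cytokines. TIMPs bind the active site of MMPs and block them, and Timp2 also bridges the membrane-anchored protease Mmp14 to the Mmp2 precursor, which Mmp14 then activates. In breast tumours these genes are known mainly as products of the stroma, that is of cancer-associated fibroblasts (CAFs) and macrophages.

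Of these genes, 3 lie together on chromosome 9, in a cluster of 10 family genes that spans 427 kb in the GRCm38.p6 annotation (mm10). Mmp13, the main interstitial collagenase of rodents, occupies chr9:7272514-7283333. Mmp12, the macrophage elastase, lies at chr9:7344397-7360461, 61.1 kb beyond the end of Mmp13, and Mmp3 (stromelysin-1) lies a further 85.4 kb on, at chr9:7445822-7455975. The other members are spread over the genome, with Mmp2 at chr8:92827290-92853421, Mmp9 at chr2:164940326-164955850, Mmp11 at chr10:75923221-75932502, Mmp14 at chr14:54431598-54442456, Timp1 at chrX:20870166-20874737, Timp2 at chr11:118301061-118355411 and Timp3 at chr10:86300412-86349505. The start regions of the 3 clustered genes, whose levels in CAFs and macrophages are described below, share a short motif. The 100 bases before a start of each are shown for that reason, from RefSeq on GRCm38.p6, 5′ to 3′ on the plus strand, with the AP-1 motif TGAGTCA or its reverse complement TGACTCA in capitals.
Mmp13: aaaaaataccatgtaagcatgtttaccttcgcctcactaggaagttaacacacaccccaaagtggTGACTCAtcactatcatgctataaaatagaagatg
Mmp12: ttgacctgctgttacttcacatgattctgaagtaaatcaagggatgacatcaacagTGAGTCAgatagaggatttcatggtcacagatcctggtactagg
Mmp3: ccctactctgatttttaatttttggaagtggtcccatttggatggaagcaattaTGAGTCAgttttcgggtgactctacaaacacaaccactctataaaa
They cover chr9:7272414-7272513, chr9:7347274-7347373 and chr9:7445722-7445821, and the motif begins 35, 44 and 46 bases before the start. For Mmp12 the stretch belongs to the downstream of its 2 annotated starts, and the stretch before the upstream start held no motif. Promoters were given for 8 of the 10 members. Within 250 bases before the start, on either strand, the motif was found in Mmp13, Mmp12 and Mmp3 and not in Mmp11, Mmp14, Timp1, Timp2 or Timp3. It occurred in 7 of the 10 genes of the cluster and in 4.46% of all 32851 mouse promoters of that length. The match describes letters only.

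Cells were clustered without any gene of the MMP and TIMP families and named from markers, and the members' UMIs were then counted by class. The 491 fibroblast-like cells held 5672 of the 9894 MMP UMIs, or 57.3% (interval 56.3 to 58.3). They held 58.2% in WB1P and 56.6% in WB1P-Myc, and the shares by fraction, 47.0 to 67.3% for WB1P and 53.4 to 62.3% for WB1P-Myc, overlapped. Macrophage-like cells held a further 24.2% of the MMP UMIs and epithelial-like cells 11.99%. Of the UMIs of all genes, fibroblast-like cells held 582370 of 3347371 in WB1P and 963845 of 11943202 in WB1P-Myc. They were 10.2% of all kept cells, macrophage-like cells 22.5% and epithelial-like cells 30.3%.

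TIMP UMIs were spread more widely. Fibroblast-like cells held 4539 of 11878, or 38.2% (37.3 to 39.1), Schwann-like cells 29.0%, epithelial-like cells 16.2% and macrophage-like cells 8.80%. In WB1P the fibroblast-like share was 57.2% (55.5 to 58.8), and in WB1P-Myc it was 30.3% (29.3 to 31.3). All 3 WB1P fractions with at least 20 fibroblast-like cells (57.9, 67.6 and 48.6%) exceeded all 4 WB1P-Myc fractions (24.2, 33.7, 29.98 and 33.3%). The 907 Schwann-like cells, which were named from glial markers, came from WB1P-Myc alone and held 41.2% of its TIMP UMIs, so the fibroblast-like shares of the models rest on different mixtures of cells. Schwann-like cells also held 4244789 of the 11943202 UMIs of all genes in WB1P-Myc. Summed over the TIMP genes, they stood at 812 CPM there, against 2631 CPM in fibroblast-like cells. The fibroblast-like share of TIMP UMIs in WB1P-Myc was 50.1% with classes set by each cell's own markers and 46.5% without possible doublets.

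**Figure D1:**
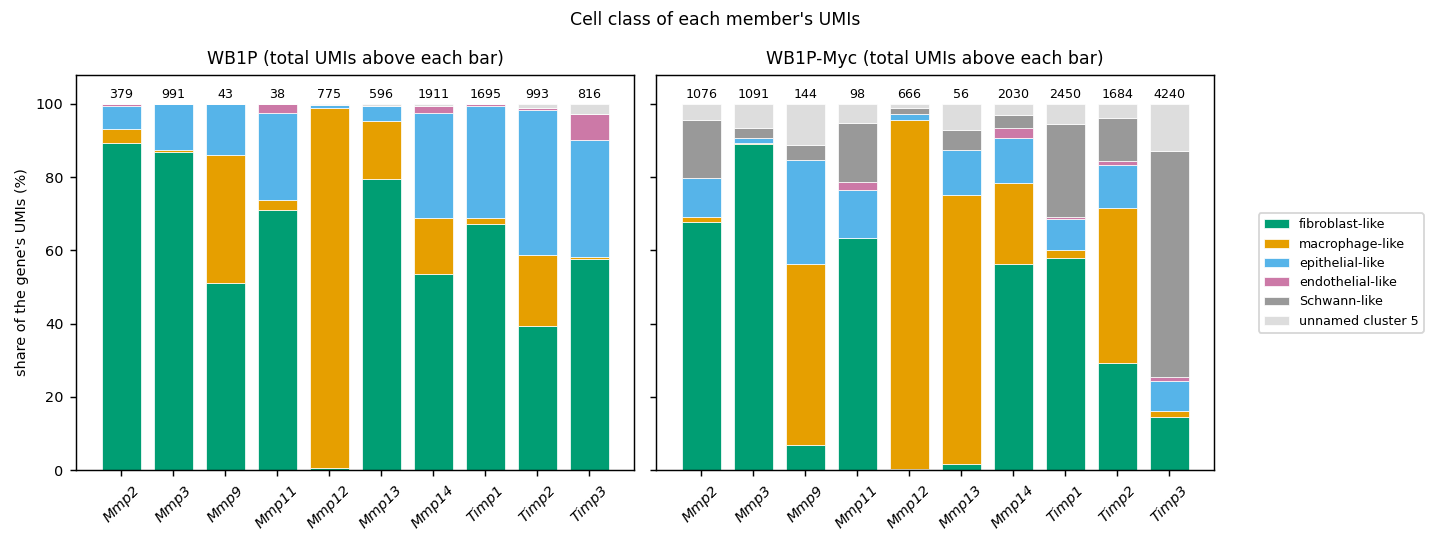
Stacked bars give the percent of each gene's UMIs that came from each cell class, separately for WB1P and WB1P-Myc, with the gene's total UMIs above each bar. Mmp3 and Mmp2 bars are mostly fibroblast-like, Mmp12 bars almost wholly macrophage-like, and the Timp3 bar of WB1P-Myc is mostly Schwann-like.

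Fibroblast-like cells had the highest level of 8 of the 10 members when the models were pooled, and macrophage-like cells the highest of Mmp12 and Mmp9. The leading classes differed by model. In WB1P fibroblast-like cells led 8 members, Mmp9 included, with Mmp12 led by macrophage-like and Timp3 by endothelial-like cells. In WB1P-Myc they led 6, and macrophage-like cells led Mmp9, Mmp12, Mmp13 and, narrowly, Timp2 (531 against 514 CPM). Among the gelatinases, Mmp2, which cleaves denatured collagen and type IV collagen, had 73.4% of its 1455 UMIs in fibroblast-like cells. Mmp9 was sparse, with 187 UMIs, of which 46.0% were macrophage-like and 25.1% epithelial-like. That order rested on 1 library. Without WB1P-Myc fraction 1, macrophage-like cells held 24.1% of the remaining Mmp9 UMIs at 15.6 CPM, fibroblast-like cells 28.7% at 23.4 CPM and epithelial-like cells 34.3% at 7.48 CPM, and in WB1P alone fibroblast-like cells held 51.2% of 43 UMIs and macrophage-like cells 34.9%. Mmp3 (stromelysin-1), which cleaves proteoglycans and activates other MMP precursors, had 88.0% of 2082 UMIs in fibroblast-like cells. Mmp11 (stromelysin-3), which furin activates inside the cell before release, had 65.4% of only 136 UMIs there.

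Mmp12 was concentrated in macrophage-like cells, which held 96.8% of its 1441 UMIs. In that class 19.2% of cells had an Mmp12 UMI, against 1.22% of fibroblast-like cells, which were sequenced more deeply (median 1496.5 against 2470 UMIs). Mmp13 had different main classes in the models. Fibroblast-like cells held 79.4% of its 596 UMIs in WB1P and macrophage-like cells 15.9%, while in WB1P-Myc macrophage-like cells held 73.2% of only 56 UMIs and fibroblast-like cells 1.79%. Mmp14 was broader, with 55.04% of 3941 UMIs in fibroblast-like, 20.2% in epithelial-like and 18.7% in macrophage-like cells.

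The inhibitors differed among themselves. Timp1, a secreted inhibitor that acts weakly on membrane-anchored MMPs, had 61.8% of 4145 UMIs in fibroblast-like cells. Timp2 was split between macrophage-like (33.7%), fibroblast-like (33.1%) and epithelial-like cells (22.04%) of 2677 UMIs. Timp3, which binds to the matrix and also inhibits ADAM and ADAMTS proteases, had 51.8% of 5056 UMIs in Schwann-like cells, 21.6% in fibroblast-like cells and 11.2% in an unnamed cluster of 756 cells, 737 of them from WB1P-Myc, that was led by markers that included Sox10. The intervals of the Timp3 level in WB1P-Myc overlapped between fibroblast-like cells (642 CPM, 593 to 695) and Schwann-like cells (617 CPM, 594 to 642). In WB1P they overlapped between fibroblast-like cells (809 CPM, 737 to 885) and endothelial-like cells (941 CPM, 715 to 1217).

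**Figure D2:**
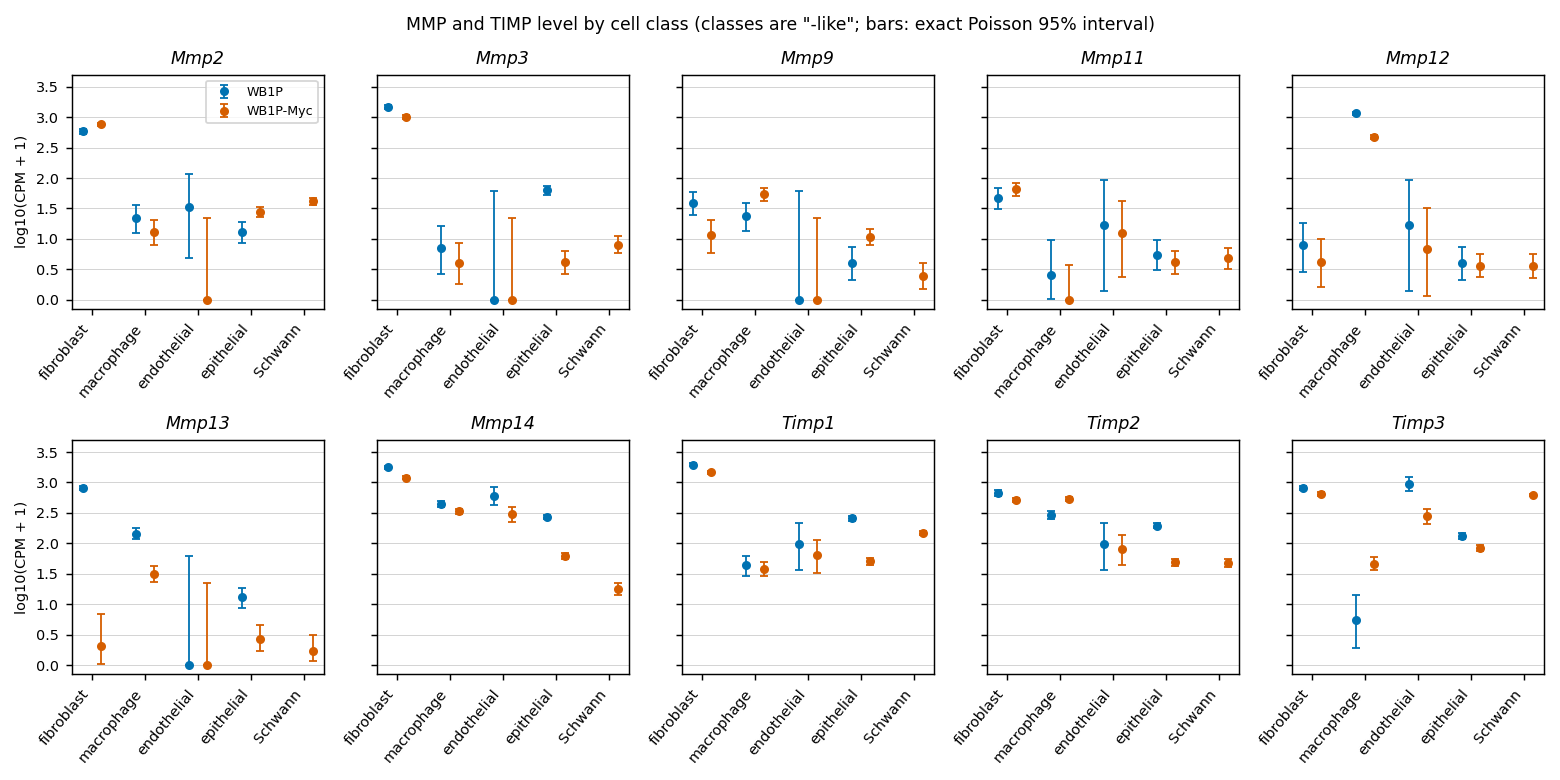
Each panel shows 1 gene, with log10(CPM + 1) on the vertical axis, cell classes on the horizontal axis, WB1P and WB1P-Myc as separate points and 95% Poisson intervals as bars. Fibroblast-like cells stand highest in most panels, and Mmp12 stands highest in macrophage-like cells, at 1151 CPM in WB1P and 472 CPM in WB1P-Myc.

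In fibroblast-like cells (217 in WB1P, 274 in WB1P-Myc), Mmp13 was the only one of 8 members with at least 50 UMIs that was past 2-fold between the models. It had 473 UMIs in WB1P and a single UMI in WB1P-Myc, or 812 and 1.04 CPM, a log2 ratio of WB1P-Myc over WB1P of -9.61 (interval -14.92 to -7.13). In the WB1P fractions with at least 20 fibroblast-like cells Mmp13 stood at 164, 1620.1 and 545 CPM, and in the 4 WB1P-Myc fractions at 4.51, 0, 0 and 0 CPM. All WB1P fractions were above all WB1P-Myc fractions, and the 3 WB1P fractions differed widely from each other. This was 1 of 8 members, against 4.73% of 4417 genes with that minimum of UMIs over both models, and Mmp13 reached the minimum only through WB1P. The count was 3 in the miseq run and 5 with classes set by each cell's own markers. Mmp9, under the minimum, had 22 UMIs in WB1P (37.8 CPM) and 10 in WB1P-Myc (10.4 CPM), a log2 ratio of -1.86.

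The Mmp13 UMIs of WB1P came from few cells. Only 32 of 217 fibroblast-like cells (14.7%) had an Mmp13 UMI, or 8.76% when each cell was thinned to 600 UMIs. In epithelial-like cells of WB1P the shares were 2.13% without thinning and 0.457% with it (median 2294 and 1892 UMIs in the 2 classes). In macrophage-like cells of WB1P 49 of 377 had one (median 1453 UMIs), or 6.10% with thinning. The fibroblast-like cells with Mmp13 numbered 6 of 78, 17 of 70 and 9 of 67 in fractions 2, 3 and 4, and the 10 highest cells held 80.5% of the UMIs. The 17 cells with at least 5 Mmp13 UMIs held 451 of the 473. Their summed fibroblast markers (53512 CPM) were near those of the other fibroblast-like cells (60539.5 CPM), their myofibroblast markers were higher (16182 against 10259 CPM), and their inflammatory markers lower (883 against 4013 CPM). Their macrophage markers were also lower (400.07 against 684 CPM).

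Mmp10 (stromelysin-2), a neighbour of Mmp3 in the chromosome 9 cluster that is not among the 10 genes, was singled out after its values were seen. Its level in fibroblast-like cells was 529 CPM in WB1P (308 UMIs) and 8.30 CPM in WB1P-Myc (8 UMIs), a log2 ratio of -5.99. Of the 32 WB1P cells with an Mmp13 UMI, 15 also had an Mmp10 UMI (46.9%), against 14 of the 185 cells without one (7.57%). At 600 UMIs per cell the counts were 6 of 19 (31.6%, interval 12.6 to 56.6) and 7 of 198 (3.54%, 1.43 to 7.15). The highest cell held 98 of the 308 Mmp10 UMIs. Of the 17 cells with at least 5 Mmp13 UMIs, 12 had Mmp10.

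The other measurable MMPs of fibroblast-like cells stayed within 2-fold. Mmp14 was 1762 CPM in WB1P (fractions 1752, 1834 and 1665) and 1186 CPM in WB1P-Myc (1154, 1153, 1449.9 and 964), a log2 ratio of -0.57 (-0.69 to -0.45), and it was found in 82.0 and 86.9% of cells. Mmp2, the protease that Mmp14 activates, went the other way, from 582 CPM (589, 529 and 610.2) to 756 CPM (901, 662, 838 and 634), a log2 ratio of 0.38 (0.19 to 0.57). For both genes the fractions of the models did not overlap, with every WB1P-Myc fraction below WB1P for Mmp14 and above it for Mmp2. With Mmp13, this made 3 of 8 members without overlap, against 13.6% of all genes with that minimum. The direction of Mmp2 depended on the processing, with a log2 ratio of -0.14 in the miseq run and -0.66 with classes set by each cell's own markers.

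Mmp3 was 1480.2 CPM in WB1P and 1007 CPM in WB1P-Myc, a log2 ratio of -0.56 (-0.69 to -0.42). Its WB1P fractions were 548, 1578 and 2393 CPM and its WB1P-Myc fractions 1424, 685, 1192 and 769.9 CPM. The fractions overlapped and were widely spread within WB1P, where the 10 highest cells held 67.2% of the UMIs and the highest cell 149. Without WB1P fraction 4 the log2 ratio was -0.14. For Mmp11, with 27 and 62 UMIs (46.4 and 64.3 CPM), a difference was not detectable at this depth (log2 ratio 0.47, -0.20 to 1.18).

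The 3 inhibitors were lower in WB1P-Myc fibroblast-like cells, within 2-fold and with fractions that overlapped. Timp1 was 1958 CPM in WB1P (2311, 2066 and 1392) and 1475 CPM in WB1P-Myc (1311, 1788, 1124 and 1663), a log2 ratio of -0.41. Timp2 was 673 CPM (789, 562 and 687) and 514 CPM (667, 453, 560.1 and 383), a log2 ratio of -0.39, or 0.03 in the miseq run. Timp3 was 809 CPM (1086, 678 and 622) and 642 CPM (365, 662, 671 and 858), a log2 ratio of -0.33. The median log2 ratio of all 4417 genes was 0.06. In the same cells the summed Schwann markers were 30.9 CPM in WB1P and 167 CPM in WB1P-Myc, the epithelial markers 306 and 135 CPM and the fibroblast markers 59665 and 63171 CPM, and the part of RNA from other cells in these differences was not tested.

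**Figure D3:**
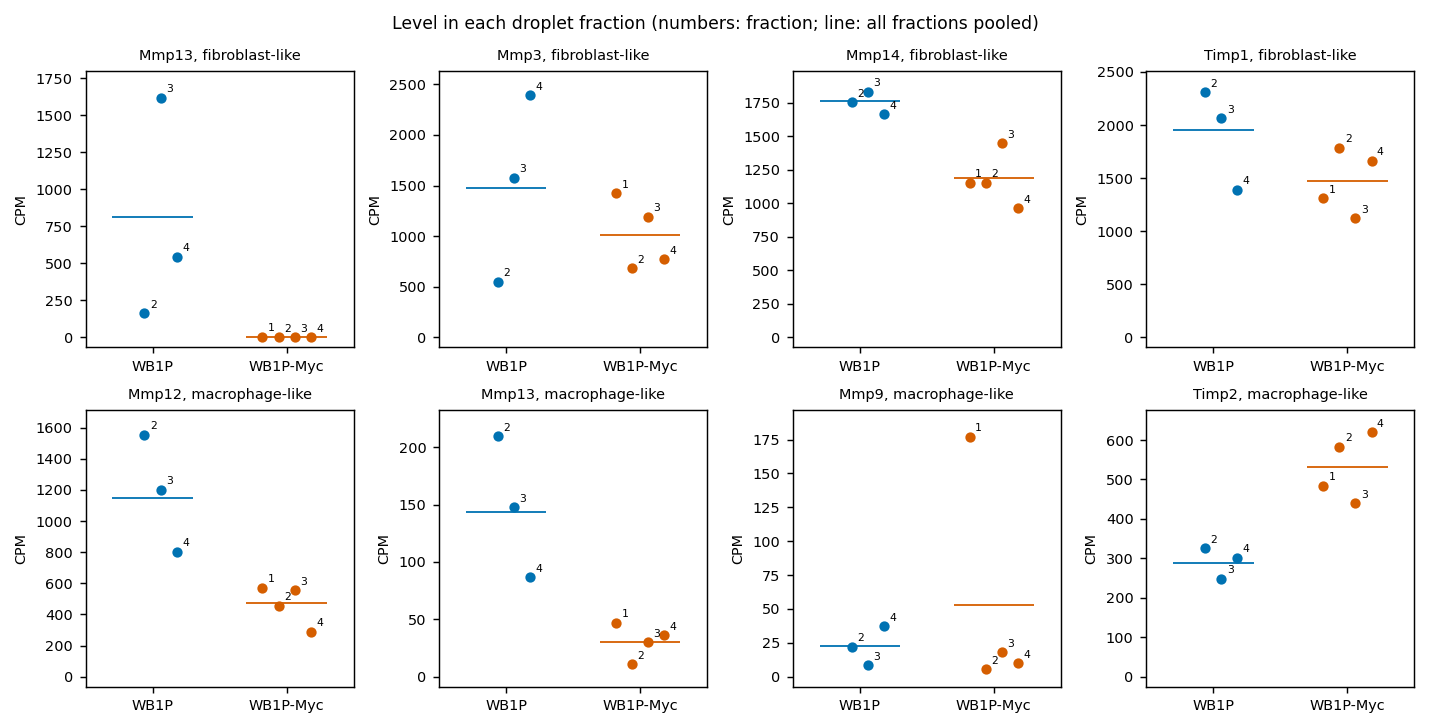
Points give CPM in single droplet fractions and lines the pooled level, for Mmp13, Mmp3, Mmp14 and Timp1 in fibroblast-like cells and Mmp12, Mmp13, Mmp9 and Timp2 in macrophage-like cells of each model. Mmp13 of fibroblast-like cells lies between 164 and 1620.1 CPM in WB1P and at or near 0 in WB1P-Myc, and Mmp9 of macrophage-like cells has 1 high fraction (177 CPM).

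The macrophage-like class (377 cells in WB1P, 703 in WB1P-Myc) also held a T or NK-like subcluster of 40 cells and 2 unnamed subclusters, of 134 and 137 cells. Subclusters were named against the other cells of the class, so macrophage markers that the class shares could not name them. In the class as a whole, the elastase Mmp12 and the collagenase Mmp13 were lower in WB1P-Myc and the inhibitors Timp2 and Timp3 higher, each with fractions that did not overlap. These were 4 of 7 members with at least 50 UMIs, and 18.9% of all genes with that minimum had fractions without overlap. Mmp12 was 1151 CPM in WB1P (1554, 1202 and 802) and 472 CPM in WB1P-Myc (573, 456, 554 and 288), a log2 ratio of -1.29 (-1.44 to -1.13). Its UMIs came from 33.2% of WB1P cells and 11.7% of WB1P-Myc cells, or 25.5 and 6.54% at 600 UMIs per cell. The 10 highest cells held 36.6% of the Mmp12 UMIs in WB1P and 62.6% in WB1P-Myc. In WB1P-Myc fraction 3 the highest cell held 87 of 185. Summed macrophage markers of cells with at least 5 Mmp12 UMIs were 29460 CPM in WB1P, against 45703 CPM in the others. In WB1P-Myc they were 46591 and 43732 CPM. Mmp13 was 144 CPM in WB1P (209, 148 and 86.8) and 30.6 CPM in WB1P-Myc (47.2, 10.996, 29.97 and 36.1), a log2 ratio of -2.23 (-2.80 to -1.69). It was found in 49 WB1P cells (13.0%) and 16 WB1P-Myc cells (2.28%).

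Of 7 members with at least 50 UMIs in macrophage-like cells, 4 were past 2-fold, 2 lower and 2 higher, against 8.71% of 5248 genes with that minimum. Timp3 and Mmp9 reached the minimum only through WB1P-Myc, where they were higher, and Mmp13 would not have reached it without WB1P. The count was 2 in the miseq run and 1 at 600 UMIs per cell, where only Mmp12, Mmp14 and Timp2 reached the minimum. The median log2 ratio of all these genes was 0.13, and TMM or DESeq2 size factors shifted the ratios of this class by 0.12 or 0.11. Mmp13 was more frequent in macrophages that had Mmp12. At 600 UMIs per cell, Mmp13 was found in 14.6% of the WB1P cells with Mmp12 and in 6.10% of all macrophage-like cells, and in WB1P-Myc in 13.0 and 1.14%.

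Timp2 was 289 CPM in WB1P (325, 249 and 302) and 531 CPM in WB1P-Myc (484, 583, 441 and 619). The log2 ratio was 0.88 (0.65 to 1.117), within 2-fold, and ranged from 0.67 to 1.21 over the alternatives. Timp2 was found in 30.5% of WB1P and 42.2% of WB1P-Myc cells. Timp3 had 3 UMIs in WB1P (4.53 CPM) and 61 in WB1P-Myc (45.5 CPM), with fractions of 0, 4.22 and 8.27 CPM against 14.8, 33.0, 68.9 and 68.8 CPM, a log2 ratio of 3.33 (1.71 to 5.64). Every WB1P-Myc fraction was above every WB1P fraction, at levels of a few UMIs. The summed Schwann markers of macrophage-like cells moved with it, from 22.7 to 222 CPM, and in WB1P-Myc they were 627 CPM in the 40 cells with a Timp3 UMI and 177 CPM in the others. The summed fibroblast markers were also higher in those 40 cells, at 974 against 304 CPM. The part of either list in the Timp3 difference was not tested.

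Mmp9 (gelatinase B) was 22.7 CPM in WB1P (22.04, 8.43 and 37.2) and 52.9 CPM in WB1P-Myc (177, 5.50, 18.0 and 9.83), a log2 ratio of 1.22 (0.41 to 2.13). The fractions overlapped and 1 of them decided the direction, since without WB1P-Myc fraction 1 the log2 ratio was -1.05. Only 16 WB1P-Myc cells had an Mmp9 UMI, and 66 of the 71 UMIs lay in an unnamed myeloid subcluster of 134 cells, 132 of them from WB1P-Myc, whose top genes were Pf4, Lpl, Cd36, Ctsl, Plp2, Timm17a, Ccl7, Ccl2, Nrp2 and S100a4. Mmp14 was 439.6 CPM in WB1P (408, 371 and 525) and 333 CPM in WB1P-Myc (393, 297, 342 and 302), a log2 ratio of -0.40, with overlapping fractions. In the miseq run its log2 ratio was 0.25. Timp1 was low in both models, with 28 and 50 UMIs (42.3 and 37.3 CPM).

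The directions of Mmp12, Mmp13 and Timp2 were the same within the largest myeloid subcluster, which was named macrophage-like from markers such as C1qa, C1qb, C1qc and Csf1r and held 273 WB1P and 496 WB1P-Myc cells. There Mmp12 was 1382 and 563 CPM (log2 ratio -1.30), Mmp13 171 and 36.4 CPM (-2.24), and Timp2 399.7 and 684 CPM (0.78). Mmp9 had 11 UMIs there in WB1P (26.2 CPM) and 5 in WB1P-Myc (5.68 CPM), the opposite direction to the class as a whole. Each transcript is counted at its 3′ end, so UMIs were summed over the genes. TIMP UMIs were 15.8% (13.9 to 17.8) of all MMP and TIMP UMIs in WB1P macrophage-like cells and 40.4% (38.3 to 42.6) in WB1P-Myc. In fibroblast-like cells these values were closer, 42.1 and 46.5%, and in Schwann-like cells 91.8% of the UMIs were TIMP.

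**Figure D4:**
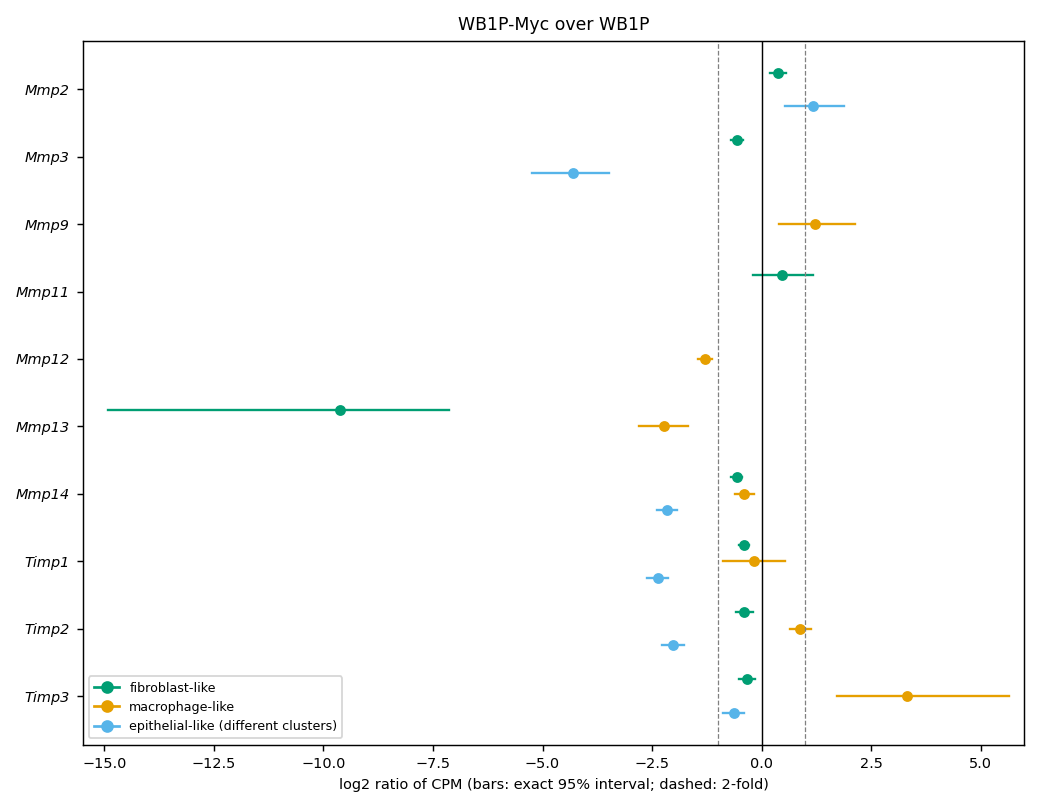
Points give the log2 ratio of WB1P-Myc over WB1P for each member with at least 50 UMIs, with 95% counting intervals, in fibroblast-, macrophage- and epithelial-like cells, and dashed lines mark 2-fold. Mmp13 lies below the lower line in fibroblast-like (-9.61) and macrophage-like cells (-2.23), and Timp3 above the upper line in macrophage-like cells (3.33).

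Fibroblast-like cells were split further into inflammatory (iCAF-like, 206 cells) and myofibroblastic (myCAF-like, 258 cells) clusters, again without the members. Mmp2, Mmp3 and Timp2 were higher in iCAF-like cells, and Mmp13 and Timp1 in myCAF-like cells. Of 8 members with at least 50 UMIs, 3 were past 2-fold higher in iCAF-like cells and 2 past 2-fold lower. Of 4353 genes with that minimum, 7.47% were higher and 9.63% lower. Mmp13 reached the minimum only through myCAF-like cells of WB1P, where it was higher. Where cells with a UMI of Cd34 were set against those without in place of the clusters, 1 of 8 members was past 2-fold, against 9.06% of 4417 genes, namely Mmp13 at a log2 ratio of -1.77, while Mmp2 was 0.56, Mmp3 0.09, Timp2 0.67 and Timp1 -0.44. A Cd34 UMI was found in 93 of 491 fibroblast-like cells, fewer than the 206 iCAF-like cells, so the group without held iCAF-like cells too. The median log2 ratio of all genes was -0.18 between the clusters and -0.05 in the Cd34 comparison. Because clusters were made from the other genes of the same cells, these are descriptions and not tests.

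The gelatinase Mmp2 was 1176 CPM in iCAF-like and 395 CPM in myCAF-like cells (log2 ratio 1.57, interval 1.39 to 1.76). Within fractions the log2 ratio was 1.54, 1.505 and 1.44 in WB1P and 1.44, 1.51, 1.22 and 2.26 in WB1P-Myc, so Mmp2 was past 2-fold higher in iCAF-like cells in all 7 fractions. Timp2, which takes part in Mmp2 activation, was 898 and 378 CPM, a log2 ratio of 1.25 (1.05 to 1.45), with 1.47, 1.71 and 1.68 in the WB1P fractions and 0.93, 0.95, 0.94 and 1.24 in the WB1P-Myc fractions. Mmp14 was 1081 CPM in iCAF-like and 1599.6 CPM in myCAF-like cells, within 2-fold (log2 ratio -0.57). By fraction it was -1.08, -0.70 and -0.83 in WB1P and -0.30, -0.09, -0.99 and 0.13 in WB1P-Myc, so 1 of 7 fractions went the other way. At 600 UMIs per cell, Timp2 was found in 37.4% of fibroblast-like cells with Mmp2 and in 26.7% of all.

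Mmp3 was 2587 CPM in iCAF-like and 341 CPM in myCAF-like cells (log2 ratio 2.92, interval 2.75 to 3.10). The log2 ratio was 1.92 in WB1P (2.64, 2.45 and 0.90 by fraction) and 5.00 in WB1P-Myc (6.30, 4.30, 5.80 and 4.37). All 7 fractions had more Mmp3 in iCAF-like cells, and every WB1P-Myc ratio was above every WB1P ratio. In iCAF-like cells Mmp3 was 2804 CPM in WB1P (1325, 3496 and 3224) and 2466 CPM in WB1P-Myc (3268, 1882, 2351 and 2298), with fractions that overlapped. In myCAF-like cells it was 743 CPM in WB1P (213, 642 and 1732) and 76.9 CPM in WB1P-Myc (41.6, 95.6, 42.1 and 111), with fractions that did not. Among all genes with at least 50 UMIs in myCAF-like cells, 13.5% had fractions without overlap. The WB1P level in myCAF-like cells rested on 25 cells, of which the 10 highest held 91.9% of the UMIs and the highest 135.

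Mmp13 was 53.0 CPM in iCAF-like and 477 CPM in myCAF-like cells (log2 ratio -3.17, interval -3.74 to -2.64). Nearly all of its UMIs were those of WB1P, where it was 148 CPM in iCAF-like and 1203 CPM in myCAF-like cells, with myCAF-like fractions of 220.1, 2448 and 736 CPM. In WB1P-Myc no Mmp13 UMI was found in 132 myCAF-like cells. Against a floor of 3 counts over that group, the pooled myCAF-like level of WB1P was 224-fold higher, and 78.5-fold higher without WB1P fraction 3. The spread of the WB1P level does not enter these folds. In WB1P 25 of 126 myCAF-like cells had an Mmp13 UMI, and the 10 highest held 83.5% of the UMIs. The ratio of iCAF-like over myCAF-like cells depended on single libraries, with a log2 ratio of -1.10 without WB1P fraction 3 and -5.83 without fraction 4. Mmp10 had the same direction, at 3.42 and 337 CPM (log2 ratio -6.62). Pericyte markers also separated the clusters, with a summed 80.9 CPM in iCAF-like and 1195 CPM in myCAF-like cells of WB1P. Without the cells that had a UMI of the pericyte gene Rgs5, the same 5 members were past 2-fold. Of all 4084 genes there, 7.47% were higher and 8.55% lower. In that comparison 2 of 2 measurable pericyte markers were still past 2-fold lower in iCAF-like cells, and the part of pericyte-like cells was not tested.

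Timp1 was 958 CPM in iCAF-like and 2135 CPM in myCAF-like cells (log2 ratio -1.16, interval -1.30 to -1.02). By fraction it was -1.70, -1.41 and -1.49 in WB1P and -0.48, -1.15, -0.48 and -1.21 in WB1P-Myc, and thus below 0 in all 7. Timp3 had no common direction, with log2 ratios of -0.60, 0.41 and 2.67 in the WB1P fractions and -0.42, 0.29, -1.37 and -1.54 in the WB1P-Myc fractions. Mmp11 was 68.4 and 50.7 CPM (log2 ratio 0.43). Mmp9 had 0 UMIs in iCAF-like and 31 in myCAF-like cells, under the minimum of 50.

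The models were also compared inside each CAF cluster. In iCAF-like cells fractions of the models did not overlap for 3 of 6 members (Mmp2, Timp2 and Timp3), against 14.2% of all 1895 genes with the minimum of UMIs. In myCAF-like cells they did not overlap for 3 of 7 (Mmp3, Mmp13 and Mmp14), against 13.5% of all 3015 such genes. Mmp3 and Mmp13 reached the minimum in myCAF-like cells only through WB1P, where they were higher. In iCAF-like cells Mmp2 was 971 CPM in WB1P (1087, 941 and 861) and 1291 CPM in WB1P-Myc (1418.5, 1189, 1199 and 1414), a log2 ratio of 0.41. Timp2 went the other way there, at 1157 CPM (1427, 1039 and 1092) and 752 CPM (904, 681, 744 and 648), a log2 ratio of -0.62. In iCAF-like cells the inhibitor Timp3 was 938 CPM in WB1P (798, 814 and 1079) and 446 CPM in WB1P-Myc (305, 773, 376 and 353), a log2 ratio of -1.07, and every WB1P fraction was above every WB1P-Myc fraction, a separation in either direction that 14.2% of all genes showed in iCAF-like cells. In myCAF-like cells Timp3 was 727 and 764 CPM. Mmp14 showed its gap mainly in myCAF-like cells, at 2086 and 1280.4 CPM, with 1190.4 and 1019 CPM in iCAF-like cells. Timp1 was 2578 and 1844 CPM in myCAF-like and 895 and 993 CPM in iCAF-like cells. TIMP UMIs made up 45.2% of all MMP and TIMP UMIs of myCAF-like cells in WB1P and 61.6% in WB1P-Myc, where Mmp13 was at 0, and 36.6 and 31.1% of those of iCAF-like cells. These differences between the clusters were not tested.

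**Figure D5:**
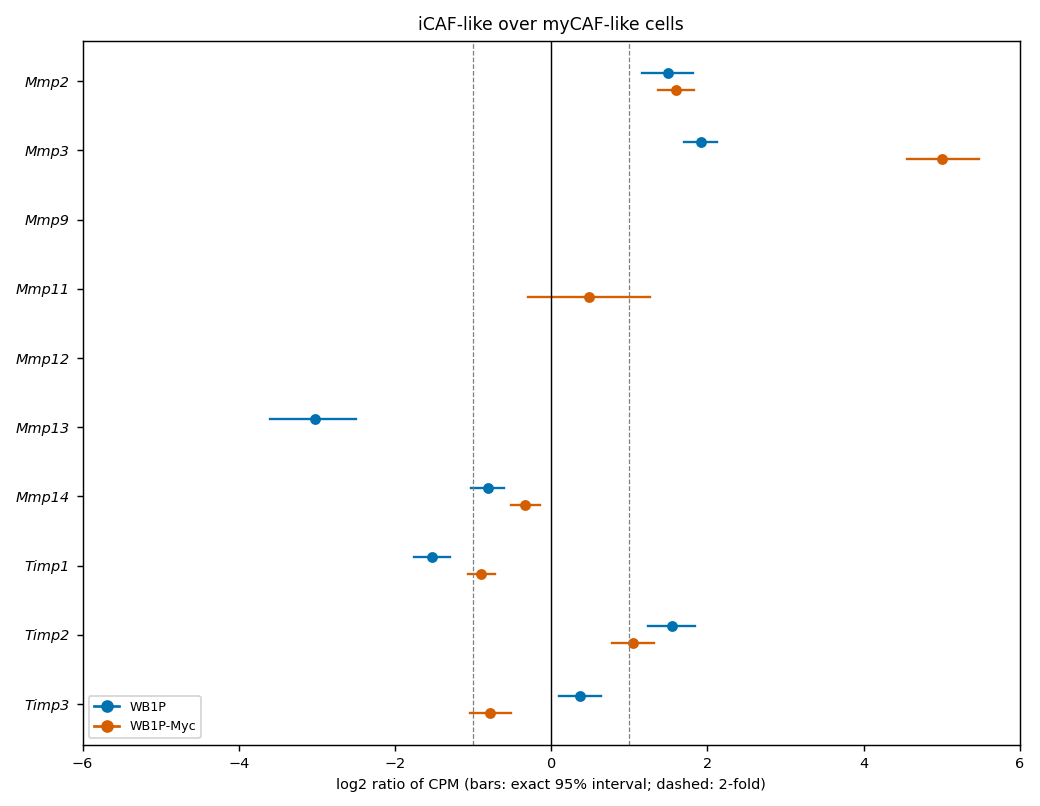
Points give the log2 ratio of iCAF-like over myCAF-like cells for each member with at least 50 UMIs, separately for WB1P and WB1P-Myc, with 95% counting intervals, and dashed lines mark 2-fold. Mmp2, Mmp3 and Timp2 lie above 0 and Timp1 below 0 in both models, with Mmp3 at 1.92 in WB1P and 5.00 in WB1P-Myc.

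In Schwann-like cells of WB1P-Myc, Timp3 was 617 CPM (633, 625, 682 and 527) and was found in 490 of 907 cells (54.0%), Timp1 was 148 CPM, and Mmp14 was 16.7 CPM. In macrophage-like cells of the same model, as a background, Timp3 was found in 5.69% of cells, and at 600 UMIs per cell the shares were 24.6 and 1.99%. The unnamed cluster led by markers that included Sox10 had Timp3 at 512 CPM and Timp1 at 125 CPM in WB1P-Myc. The estimated share of free RNA was 10.98% of UMIs in Schwann-like cells and 24.7% in that cluster. In endothelial-like cells Timp3 was 941 CPM in WB1P (38 cells) and 279 CPM in WB1P-Myc (72 cells), a log2 ratio of -1.75. Most fractions held too few endothelial-like cells for a value of their own.

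Epithelial-like cells of the models came from different clusters, so their ratio sets 2 clusters side by side. The WB1P-Myc cluster of 786 cells was led by Krt19, Krt14, Krt17, Cdh1 and Cldn7, but none of these was among its 10 top genes. Mmp14 was 270.05 CPM in WB1P (358, 293, 241 and 257) and 60.6 CPM in WB1P-Myc (52.3, 82.7, 49.7 and 59.7). Timp1 was 258 CPM (426, 302, 166 and 263) and 49.8 CPM (53.2, 58.5, 37.5 and 49.3), and Timp2 was 195 and 47.7 CPM. For Mmp14, Timp1 and Timp2 every WB1P fraction exceeded every WB1P-Myc fraction, with log2 ratios of -2.15, -2.37 and -2.03. In this class 30.9% of 8974 genes were past 2-fold between the models and 37.1% had fractions without overlap. The gelatinase Mmp2 went the other way, from 11.9 CPM (0, 15.4, 1.84 and 18.02) to 26.95 CPM (22.1, 37.3, 29.4 and 19.9), a log2 ratio of 1.18 on 24 and 112 UMIs, and every WB1P-Myc fraction was above every WB1P fraction. Mmp9 had 6 and 41 UMIs (2.98 and 9.87 CPM), under the minimum together. Mmp3 was 61.6 CPM in WB1P (0, 46.1, 38.7 and 105) and 3.13 CPM in WB1P-Myc (0.82, 7.06, 2.03 and 3.14), a log2 ratio of -4.30 with overlapping fractions, since it was 0 in WB1P fraction 1, and in WB1P it came from 20 of 656 cells. Timp3 was 130.1 CPM in WB1P (67.2, 163, 103 and 125) and 83.5 CPM in WB1P-Myc (77.7, 63.5, 108.5 and 85.9), a log2 ratio of -0.64, with overlapping fractions.

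Other genes of the pathway were taken from lists chosen by function, and their counts in fibroblast-like cells stand against the 4.73% of all 4417 genes past 2-fold there. Of 18 further MMP, TIMP and Reck genes, 3 reached 50 UMIs in fibroblast-like cells and 1, Mmp10, was past 2-fold between the models. Mmp10 reached that minimum only through WB1P, where it was higher. Of 10 genes of MMP activation and clearance (the plasminogen system, furin, basigin and scavengers), 8 were measurable in fibroblast-like cells and 1 was past 2-fold, the protease inhibitor Serpine2, at 2437 CPM in WB1P and 996 CPM in WB1P-Myc (log2 ratio -1.29). Of 15 ADAM and ADAMTS genes, 10 were measurable and 1 was past 2-fold, the aggrecanase Adamts4 (329.7 and 151 CPM). Of 9 measurable immediate early genes 0 were past 2-fold in fibroblast-like cells, with the AP-1 subunits Fos at 2541 and 2316 CPM and Jun at 2749 and 2084 CPM.

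In macrophage-like cells Mmp19 (145 and 58.2 CPM), the 1 further family gene with 50 UMIs, was past 2-fold lower in WB1P-Myc. Of 7 measurable activation and clearance genes 2 were lower, the urokinase receptor Plaur (406 and 174 CPM, log2 ratio -1.23) and Serpine2 (40.8 and 17.1 CPM, -1.25), and 0 of 6 measurable ADAM and ADAMTS genes passed 2-fold, against 8.71% of all genes of that class. Of 9 measurable immediate early genes 1, Egr1, was higher (93.7 and 290.0 CPM, log2 ratio 1.63). Between the CAF clusters, 2 of 10 ADAM and ADAMTS genes were past 2-fold higher in iCAF-like cells. These were the aggrecanases Adamts5 (log2 ratio 3.30) and Adamts15 (3.90). Of 7 activation and clearance genes, 2 were past 2-fold lower, Serpine2 (-3.50) and Plaur (-1.13). Unlike the members, the genes of these lists took part in the clustering, and Serpine2 was among the top genes of the myCAF-like cluster. Of 3 further family genes Mmp19 (1.01) was higher and Mmp10 lower, against 7.47% of all genes higher and 9.63% lower. Without the cells that had an Rgs5 UMI, 0 of the 3 were past 2-fold higher and 1 was lower.

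The genes whose levels followed each member most closely over 9 class and model points were named by Pearson's r of log2(CPM + 10), as a description, since the points share libraries. Each r was picked as the highest among genes with at least 200 UMIs. Over so few points, genes confined to the same class score high together. Mmp12 was followed most closely by the myeloid genes Ly86 (r = 0.997) and Clec5a (0.997). Mmp11 went with Adam12 (0.992), Timp1 with Efemp2 (0.985), Mmp14 with Gas6 (0.982), Timp3 with Fkbp9 (0.980), Mmp3 with Sfrp1 (0.979), Mmp2 with Lpar1 (0.978) and Timp2 with Itgb5 (0.976). Mmp9 and Mmp13 had no gene as close, with a highest r of 0.924 (Phyh) and 0.864 (Dcaf5).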

How the data were processed

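The deposited tables hold raw UMI counts, 1 value per gene symbol and cell barcode and 1000 barcodes per table, which the authors made with dropseq-tools. The submitters' processing notes name mm10 and Scanpy, with the aligner not given in the sources used here. The 8 hiseq tables, with 256985 to 1918672 UMIs in WB1P and 3814562 to 4960334 in WB1P-Myc, gave the values. The 8 miseq tables of the same fractions share only 59 barcodes with them, so miseq values come mostly from other barcodes, and whether both runs sequenced the same amplified cDNA is unclear.

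The filters of the study were applied, namely 450 to 4000 genes and under 20% mitochondrial UMIs, with genes seen in at least 3 cells. Cells were clustered in scanpy 1.11.5 (30 components, 20 neighbours, Leiden resolution 0.3) without the genes of the MMP and TIMP families and Reck, and fibroblast-like cells again with 40 components. Cluster names came from marker lists, first by how many markers of a type were in the cluster's 10 top genes and then by how many led it (seen in 10% of cells and 2-fold over other cells), with 3 as the least. No doublet caller was run. Counts were pooled per class, model and fraction and given per 1000000 UMIs of that pool (CPM), and a fraction gave a value where the class had at least 20 cells in it. Intervals are Poisson for CPM, Clopper-Pearson for shares and conditional binomial for ratios, all exact and for counting error only. A ratio was called past 2-fold with at least 50 UMIs over both groups, and a count of 0 took a floor of 3 counts over the group. With each model treated as 1 sample no p-value was computed. The study names 2 mice per model, and no label ties a fraction to a mouse.

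The ratio intervals and 2-fold calls were checked on simulated counts drawn independently for each gene. That setting leaves out the clumping of UMIs in few cells, so the intervals were not checked against it. All 10 members are named whatever their values, list genes by their calls, and the most alike genes among those with at least 200 UMIs. The members and lists were chosen with earlier results of these data known. The alternatives changed the run, clustering genes, resolution, filters, class rule, doublets, depth, free RNA, scaling (edgeR 4.0.16 TMM, DESeq2 1.42.0 size factors), UMI minimum, CAF definition and single fractions. The thinned Mmp10 shares and the shares of genes with fractions apart were added after seeing the data. So were the Mmp13 fold over the floor and the Mmp9 shares without 1 fraction. Positions and promoters came from RefSeq on GRCm38.p6.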

Additional observations from a re-analysis of the deposited data

Results flagged for a closer look

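In 4 of 51 groups of 4 fractions, 1 fraction stood apart from the rest by more than Dixon's 95% limit for the gap over the range. For independent normal values about 1 in 20 groups would pass it. These groups hold clumped counts, and subclusters share cells with their classes, so that rate does not apply here. Both Mmp9 groups below share most of their UMIs. Mmp9 was 177 CPM in macrophage-like cells of WB1P-Myc fraction 1 and at most 18.0 CPM in the other fractions, and in the unnamed myeloid subcluster with most of its UMIs it was 635 CPM in that fraction and at most 54.6 CPM in the others. Timp2 was 426 CPM in epithelial-like cells of WB1P fraction 1, which held 60 such cells, and 207, 173 and 168 CPM in the other WB1P fractions. Timp3 was 773 CPM in iCAF-like cells of WB1P-Myc fraction 2 and 305, 376 and 353 CPM in the others.

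Timp2 went in opposite directions between the models in different classes. The log2 ratio of WB1P-Myc over WB1P was 0.88 in macrophage-like cells and -2.03 in epithelial-like cells, and the fractions of the models did not overlap in either class. The difference itself was not tested, and the epithelial-like cells of the models came from different clusters.

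Members were also counted in data outside the main values. Barcodes over the limit of 4000 genes, 40 in WB1P and 134 in WB1P-Myc, held 465 MMP and 735 TIMP UMIs in WB1P and 631 MMP and 1581 TIMP UMIs in WB1P-Myc. Of Mmp13, these barcodes held 11 UMIs in WB1P and 28 in WB1P-Myc, or 6.89 and 6.26 CPM. The miseq tables held 1451 MMP and 1239 TIMP UMIs in WB1P and 805 MMP and 1558 TIMP UMIs in WB1P-Myc. None of these MMP and TIMP totals was scaled to depth.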

How the results depend on the processing

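No paired analysis was possible because the fractions of the models share only a number and no result comes from a test. No label ties fractions to mice, so how far the ratios vary between tumours cannot be read from them, and model and droplet session cannot be told apart. Of 536 alternative member ratios 511 kept their side of 2-fold, 12 fell within it, 10 passed it and 3 past 2-fold reversed. Settings that changed only the UMI minimum could not move a ratio, so their ratios are among the 511 by construction. A further 14 ratios that were within 2-fold changed sign, of Mmp2, Mmp11, Mmp14, Timp1, Timp2 and Timp3. The 3 reversed were Mmp9 in macrophage-like cells, at -2.79 in the miseq run, -0.21 with at least 200 genes per cell and -1.05 without WB1P-Myc fraction 1 (highest 1.89, without WB1P fraction 4). Mmp13 stayed past 2-fold in 1 direction in every alternative that gave a value (at 600 UMIs per cell on 37 UMIs in macrophage-like cells, under the minimum), with log2 ratios from -10.10 to -4.88 in fibroblast-like cells, -3.22 to -1.92 in macrophage-like cells and -8.41 to -1.10 between the CAF clusters, and Mmp12 in macrophage-like cells ranged from -1.74 to -1.08. The cause of the changes below was not tested.

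The fibroblast-like share of MMP UMIs was 48.5% in the miseq run and 49.5% at 600 UMIs per cell. In WB1P-Myc it was 41.8% in the miseq run, 51.2% without an upper gene limit, 67.5% with classes set by each cell's own markers and 49.0% at 600 UMIs. The share of TIMP UMIs was 53.9% with classes from each cell's markers and 52.5% without possible doublets (1518 cells left out). In WB1P it was 44.3% in the miseq run and 47.3% without an upper gene limit, and in WB1P-Myc 21.6% in the miseq run, 50.1% with classes from each cell's markers, 46.5% without possible doublets and 24.4% at 600 UMIs. In place of 1 member past 2-fold between models in fibroblast-like cells there were 3 in the miseq run, 5 with classes from each cell's markers, 2 with a minimum of 20 UMIs and 3 with none. In place of 4 in macrophage-like cells there were 2 in the miseq run and 1 at 600 UMIs, where fewer members reached the minimum. In place of 5 between the CAF clusters there were 3 without an upper gene limit, 3 in WB1P-Myc alone and 1 when cells with a Cd34 UMI were set against those without. The highest count between the CAF clusters over the alternatives was 7. The miseq run gave no iCAF-like cluster. Of 46 member levels, 26 stayed within 1.5-fold in the miseq run and 25 with classes from each cell's markers.

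Leaving out single fractions moved the MMP share from 55.1 to 58.9% (WB1P 52.5 to 62.5, WB1P-Myc 54.4 to 57.6) and the TIMP share from 35.4 to 41.3% (WB1P 52.7 to 60.3, WB1P-Myc 29.0 to 32.4). It left 45 to 46 levels within 1.5-fold, 8 to 9 members led by fibroblast-like cells (6 in the miseq run and with classes from each cell's markers, 7 at 600 UMIs), 5 members past 2-fold between CAF clusters, 1 between models in fibroblast-like cells and 3 to 4 in macrophage-like cells.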
